A study of Arabidopsis thaliana with 27 samples.

Results

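The genes described here are 50 regulators of the Arabidopsis thaliana cell cycle, out of 27313 genes quantified. They were chosen by name: the cyclins of types A, B and D, the cyclin-dependent kinases (CDKs) of types A and B, the CDK inhibitors of the KRP and SIAMESE families, the E2F and DP transcription factors with RBR1, the activators CCS52A1 and CCS52A2 of the anaphase-promoting complex (APC/C), the transcription factor MYB3R4 and the syntaxin KNOLLE. By the phase in which each is best known to act, 11 were placed in G1 (the A-type CDK and 10 D-type cyclins), 8 in S phase (2 A3-type cyclins and 6 E2F, DP and RBR1 genes), 20 in G2/M (5 A1- and A2-type cyclins, 9 B-type cyclins, 4 B-type CDKs, MYB3R4 and KNOLLE), 2 were APC/C activators of the exit from mitosis and 9 were CDK inhibitors. Of the 50 genes, 49 passed the filter on low counts. The remaining gene, the D-type cyclin CYCD7;1 of the guard cell lineage, had 1 count in all 27 libraries.

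RNA was sequenced from root tips of 5-d-old seedlings of 3 lines. In pG1090::XVE ≫ ΔMP, estradiol induces a dominant activator form of the auxin response factor ARF5/MP, and in pG1090::XVE ≫ AXR3-1 it induces a dominant, stabilised form of the auxin signalling inhibitor IAA17/AXR3. In both, the broadly active promoter pG1090 drives the estradiol-dependent activator XVE. Col-0, the wild type, carries neither transgene. Each line was treated with 2.5 µM estradiol for 90 min or for 180 min, or with a mock treatment for 90 min, with 3 libraries (A, B and C) in each of the 9 groups, every library being a pool of root tips. A mock of 180 min was not analysed here, and the roots given estradiol for 180 min were therefore also 90 min further on than their mock. Col-0 given estradiol had the drug and that time without a transgene, and both are subtracted where the change in Col-0 is taken off the change in ΔMP or AXR3-1 (the interaction, written below as the difference from the Col-0 response). The 90 and 180 min comparisons of a line share its mock libraries.

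The cell cycle runs through G1, S, G2 and M phases, and each step is driven by a CDK bound to a cyclin. D-type cyclins with the A-type CDK phosphorylate RBR1, the plant retinoblastoma protein, which then releases E2F and DP factors to transcribe genes of DNA replication. A2- and B-type cyclins with the A-type CDK and the plant-specific B-type CDKs drive the entry into mitosis, and many of their genes are switched on by MYB3R factors through a promoter element called MSA. The KRP and SIAMESE (SIM/SMR) proteins bind and inhibit CDK complexes, and the APC/C with CCS52 activators degrades mitotic cyclins. In root tips, cells that leave the meristem stop dividing and many go on to endoreduplication, in which DNA is replicated without mitosis. SIM, SMR1 and CCS52A1 are known to promote that switch.

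Estimated counts per library ran from 13634037 to 34272503 read pairs, with a median of 20071330, and the 50 genes took 0.0902 to 0.103% of them. The induced genes followed the labels. ARF5/MP was at 1416, 1342 and 1425 TPM (transcript abundance scaled by length and by library total) in ΔMP roots after 180 min of estradiol, against 9.47, 9.06 and 9.09 TPM in ΔMP mock roots. IAA17/AXR3 was at 2439, 2583 and 2594 TPM in AXR3-1 roots after 180 min of estradiol, against 152, 130 and 145 TPM in AXR3-1 mock roots. Reads of a transgene and of its native gene cannot be told apart in these files. Of 2 green tissue markers, LHCB1.1 lay between 0 and 0.116 TPM in all 27 libraries, while RBCS1A differed by line and time. It lay at 35.3 to 38.3 TPM in ΔMP mock roots, 44.4 to 46.9 TPM after 90 min and 28.3 to 31.6 TPM after 180 min, against 14.6 to 29.6 TPM in all AXR3-1 and Col-0 libraries. RBCS1A was higher in the ΔMP mock than in the Col-0 mock by 0.84 on the log2 scale (edgeR, adjusted p = 3.29e-05), and its part in the ΔMP results was not tested. These are bulk samples, in which fewer cells of a type and less RNA per cell cannot be told apart. The libraries of a group are given as biological replicates, without word on whether they came from separate plantings, so p-values measure only the spread between these libraries.

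The levels of the cell cycle genes in untreated roots spanned a wide range. SIM (AT5G04470), the founding SIAMESE inhibitor, was the most abundant in Col-0 mock roots at 174.7 TPM, followed by CDKA;1 (AT3G48750), the main CDK of the plant cell cycle, at 56.1 TPM and SMR1 (AT3G10525), a close relative of SIM, at 51.6 TPM. TPM are scaled by transcript length, and SIM and SMR1 have short coding sequences of 384 and 387 bases. KNOLLE, the syntaxin that fuses vesicles into the cell plate, was at 45.3 TPM and the mitotic kinase CDKB2;1 at 39.9 TPM. The D-type cyclins lay between 2.17 TPM for CYCD6;1, a cyclin of formative divisions in the ground tissue, and 32.0 TPM for CYCD2;1, apart from the gene removed by the filter. Over the 27 libraries the lowest and highest TPM differed 6.19-fold for SMR1, from 18.1 to 112.2 TPM, and 1.19-fold for RBR1, whose lowest library was at 16.9 TPM.

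**Figure D1:**
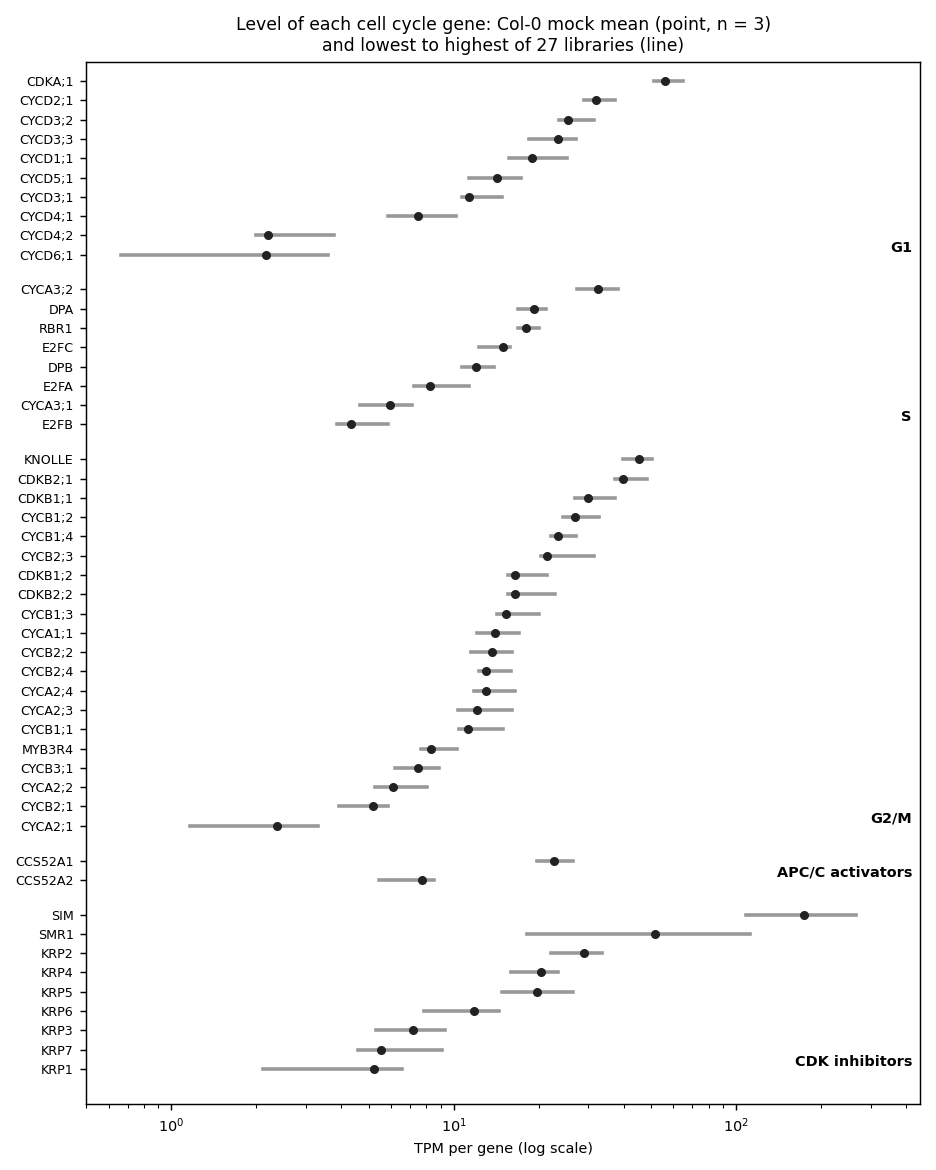
Level of each cell cycle gene in TPM on a log axis, grouped by phase. The point is the mean of 3 Col-0 mock libraries and the line runs from the lowest to the highest of all 27 libraries, and the gene removed by the filter is not drawn. SIM stands highest at 174.7 TPM, and SMR1 has the longest line, from 18.1 to 112.2 TPM.

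The promoters of these genes were read for 3 short elements in the 250 bases before each gene start of the RefSeq annotation on TAIR10.1, on both strands. The elements were the MSA core with the letters AACGG, an E2F site with the letters TTTCCCGC, TTTGGCGC, TTTCCCGG, TTTGGCGG, TTTCGCGC or TTTGCCGC, and an auxin response element with the letters TGTCTC or TGTCGG. A window may show the reverse complement of these letters. A match is a description of letters and not a bound site. The MSA core was found in 11 of the 20 G2/M genes (55%), against 20.6% of the 27444 promoters of all protein-coding nuclear genes. At least 2 copies were present in 40% of the G2/M genes, against 3.62% of all promoters. In G1 genes the MSA core share was 9.09%, in S phase genes 50% and in CDK inhibitor genes 44.4%. The E2F letters were present in 25% of the S phase genes, against 2.33% of all promoters, and the auxin response letters in 18% of the 50 genes, against 14.7% of all promoters.

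The following windows are a selection from genes that passed a test below, and from CYCB1;1, a cyclin widely used to mark cells in G2 and M phase. They read 5′ to 3′ on the strand of the gene, with the matched letters in capitals.
CYCB1;1 MSA core, chr4:17624464-17624484, minus strand: taagtgggCCGTTgtgacttc
CYCB1;1 auxin response letters, chr4:17624419-17624440, minus strand: cgatttcgTGTCTCtacagccg
CYCB1;3 MSA core, chr3:3627325-3627345, minus strand: cttatccaCCGTTagatttaa
CYCB2;3 MSA core, chr1:7137882-7137902, minus strand: gttgatccAACGGctgagatg
MYB3R4 MSA core, chr5:3679657-3679677, plus strand: aattatgtCCGTTaaatacta
E2FA MSA core, chr2:15119368-15119388, plus strand: caatattcCCGTTactaaaag
RBR1 E2F letters, chr3:3919420-3919443, minus strand: atatgtaaTTTCCCGCgtgaccta
KRP1 MSA core, chr2:9978293-9978313, minus strand: acattttaAACGGtttcgcgt
KRP1 auxin response letters, chr2:9978178-9978199, minus strand: gtttataaCCGACAcgtgtcaa
KRP7 MSA core, chr1:18366797-18366817, minus strand: taacgacgCCGTTacctgctt
CCS52A1 auxin response letters, chr4:12012190-12012211, plus strand: tacttttgTGTCTCacaattct
CYCA2;4 auxin response letters, chr1:30213662-30213683, plus strand: cactctcaGAGACAgtcccttt
KRP1 held 6 copies of the MSA core and KRP7 held 3. In windows not shown, MYB3R4, RBR1 and CYCD3;2 also held auxin response letters. CYCD3;3 held E2F letters and RBR1 the MSA core. None of the 3 elements was found in the windows of SIM, SMR1 and KRP5, which says only that these letters are not in those 250 bases.

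**Figure D2:**
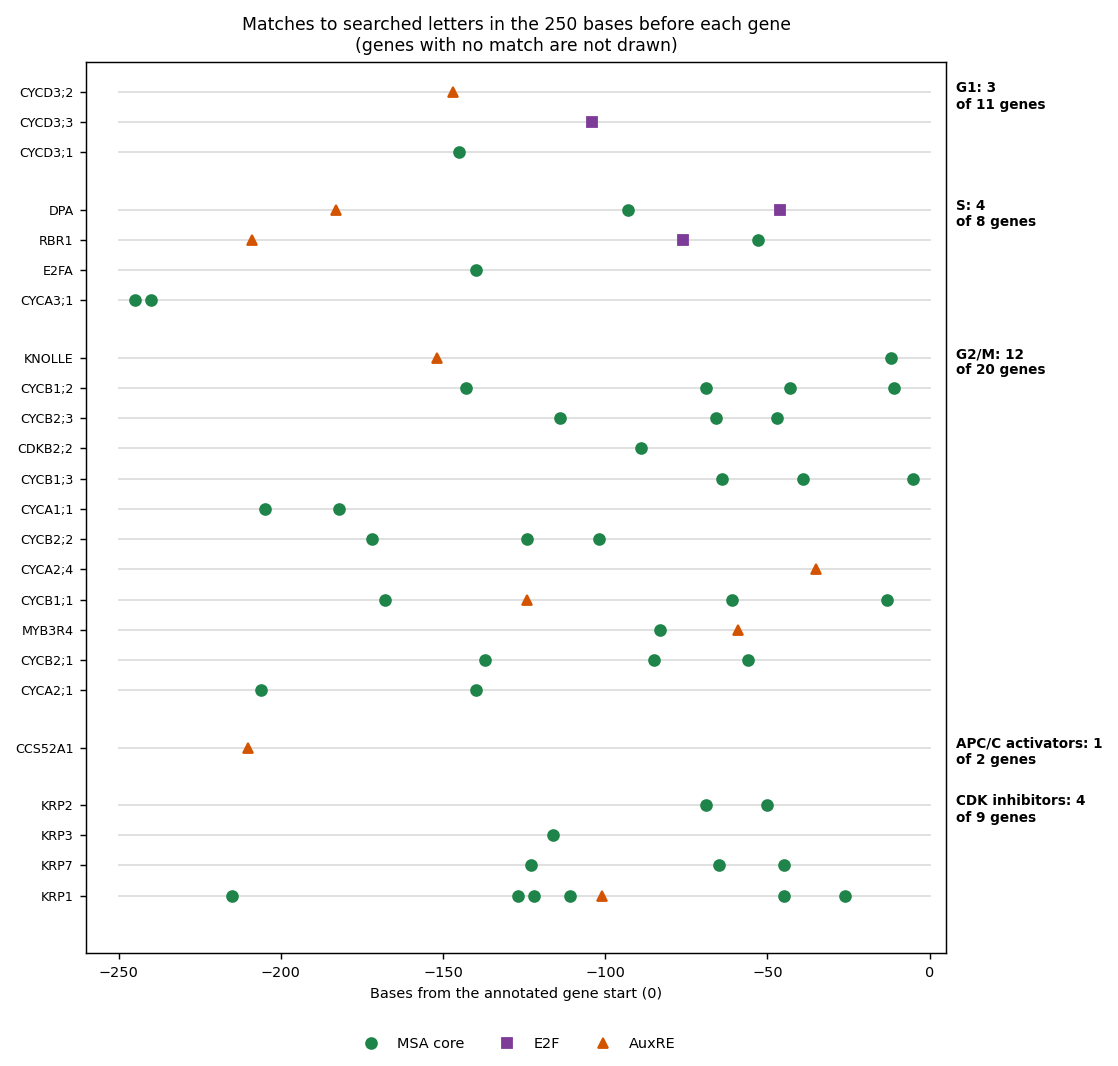
Position of each matched element in the 250 bases before the gene start, in bases before the start, for the cell cycle genes that hold any match, grouped by phase, and the marker shape gives the element. Matches were present in 12 of 20 G2/M genes, 4 of 8 S phase genes, 3 of 11 G1 genes, 4 of 9 CDK inhibitor genes and 1 of 2 APC/C activators.

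Activation of the auxin pathway by ΔMP was followed after 180 min by higher levels of SIM, SMR1 and the S phase activator E2FA. Levels of KRP1, KRP5 and CCS52A1 were lower. Of the 49 genes tested, 6 rose and 3 fell at an adjusted p of at most 0.05. Across all 19530 genes tested, 12.7% rose and 12.1% fell in the same comparison, so the share of cell cycle genes past the test lay near or below the share of all genes. None of the 49 passed both the test and a 2-fold change, as 3.65% of all genes did. Of the 40 genes not past the test, 37 had a 95% interval of the log2 fold change within ±0.5. Against the Col-0 response, SMR1 and CCS52A1 alone of the 49 differed. The CCS52A1 difference was lost in 13 of 21 alternatives.

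SMR1 changed most. Its level was 104, 105 and 112 TPM in ΔMP roots after 180 min of estradiol, against 64.7, 62.1 and 60.6 TPM in ΔMP mock roots. All 3 induced libraries lay above all 3 mock libraries, and the log2 fold change was 0.81 (SE 0.08, 95% interval 0.64 to 0.98, adjusted p = 1.55e-09). The difference from the Col-0 response was 0.74 (SE 0.12, 95% interval 0.49 to 0.99, adjusted p = 4.51e-05), and it was past the test in all 21 alternative analyses. SIM was at 230, 198 and 267 TPM after 180 min of estradiol, against 181, 151 and 187 TPM in the mock, again without overlap. Its log2 fold change was 0.40 (SE 0.10, 95% interval 0.20 to 0.60, adjusted p = 0.00239), a call lost in 1 of 15 alternatives, limma on log2(TPM + 0.5) without a TPM filter (0.0692, in a range from 1.34e-04 to 0.0692). The SIM response exceeded that of Col-0 by 0.33 (95% interval 0.04 to 0.62), which did not pass the test (adjusted p = 0.168).

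Among the KRP inhibitors, KRP1 was at 2.90, 3.42 and 2.39 TPM in ΔMP roots after 180 min of estradiol, against 4.80, 5.34 and 4.22 TPM in ΔMP mock roots. The groups did not overlap, and KRP1 fell with a log2 fold change of −0.73 (SE 0.23, adjusted p = 0.0165). In Col-0 KRP1 was at 5.08, 2.12 and 3.80 TPM after 180 min of estradiol, against 5.58, 5.11 and 5.04 TPM in the mock (log2 fold change −0.46, adjusted p = 0.251), and the difference between the responses was −0.28 (adjusted p = 0.745). KRP5, an inhibitor expressed in the root, was at 15.8, 15.7 and 14.8 TPM in induced ΔMP roots, against 19.0, 22.9 and 18.9 TPM in the mock. It fell by 0.36 on the log2 scale (SE 0.12, adjusted p = 0.0301), with a difference from the Col-0 response of −0.16 (adjusted p = 0.728). The remaining 5 KRP genes did not pass the test. The KRP1 call was lost without ΔMP library C at 180 min (adjusted p = 0.103) or mock library B (0.0809), and its adjusted p ran from 0.00424 to 0.103 over 15 alternatives. The KRP5 call was lost without ΔMP library B (0.0848) or C (0.0743) at 180 min, or without mock library B (0.175), in a range from 0.0169 to 0.175.

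E2FA, which pairs with DPA to activate replication genes, was at 10.9, 11.3 and 11.2 TPM in ΔMP roots after 180 min of estradiol, against 7.24, 7.84 and 9.17 TPM in ΔMP mock roots. The 3 induced libraries lay above every mock library (log2 fold change 0.45, SE 0.09, adjusted p = 2.05e-04). In Col-0 it was at 8.44, 9.23 and 8.84 TPM after 180 min of estradiol, against 7.80, 8.85 and 8.01 TPM in the mock, and the difference between the responses, 0.34 (95% interval 0.07 to 0.61), did not pass the test (adjusted p = 0.111). The other 7 S phase genes, among them the activator E2FB, the repressor E2FC, the partners DPA and DPB and the S phase cyclin CYCA3;2, did not pass the test, with log2 fold changes between −0.30 and 0.05.

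In G2/M, 3 of the 20 genes rose and none fell by edgeR, where 12.7% of all genes rose and 12.1% fell. None of the 20 had a fold change of 2. CYCA2;3, an A-type cyclin that holds cells in the mitotic cycle together with a B-type CDK, was at 13.2, 14.8 and 16.2 TPM in ΔMP roots after 180 min of estradiol, against 10.4, 12 and 11.9 TPM in ΔMP mock roots. Its groups did not overlap (log2 fold change 0.38, SE 0.09, adjusted p = 0.00107), and the difference from the Col-0 response was 0.15 (adjusted p = 0.595). The mitotic cyclin CYCB1;3 rose by 0.25 (adjusted p = 0.0261) and the mitotic kinase CDKB1;2 by 0.25 (adjusted p = 0.0396). The cyclin call was lost without ΔMP library A (0.0565) or B (0.131) at 180 min or mock library C (0.141), in a range from 0.0169 to 0.141. The kinase call was lost in 10 of 15 alternatives (0.0333 to 0.188), among them those without ΔMP library B (0.188) or C (0.0905) at 180 min or mock library B (0.118) or C (0.154). CYCB1;1 was at 11.0, 13.4 and 14.2 TPM after 180 min, with a mean of 12.8 ± 1.6 TPM (SD, n = 3), against 11.3 ± 0.40 TPM in the mock, and did not pass the test (log2 fold change 0.21, adjusted p = 0.120).

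CCS52A1, which directs the APC/C to mitotic cyclins and acts where root cells stop dividing, was at 19.8, 19.8 and 19.9 TPM in ΔMP roots after 180 min of estradiol, against 24.8, 23.2 and 24.4 TPM in ΔMP mock roots. All induced libraries lay below all mock libraries, and it fell by 0.27 on the log2 scale (SE 0.07, adjusted p = 0.00364). In Col-0 the level was 21.2, 21.1 and 26.5 TPM after 180 min of estradiol, against 24.4, 23.3 and 20.3 TPM in the mock, and the difference between the responses was −0.30 (SE 0.10, adjusted p = 0.0457). Adding CCS52A1 to SMR1, 2 of the 49 genes had a ΔMP response that differed from that of Col-0, and 10.1% of all genes did. The CCS52A1 difference was lost in 13 of 21 alternatives (adjusted p 0.0138 to 0.209). These included leaving out Col-0 library C at 180 min (0.209), Col-0 mock library C (0.135), ΔMP library A (0.0567), B (0.0736) or C (0.0743) at 180 min, and ΔMP mock library A (0.0930) or C (0.0796). CCS52A2, which acts in the stem cell niche, had a log2 fold change of −0.12 in ΔMP (adjusted p = 0.378). None of the 10 G1 genes tested passed the test by edgeR, and none had an unadjusted p under 0.05. CDKA;1, for example, averaged 57.3 ± 1.9 TPM in ΔMP roots after 180 min of estradiol and 60.3 ± 2.9 TPM in ΔMP mock roots (SD, n = 3 each), and the log2 fold change of −0.06 had a 95% interval of −0.18 to 0.05.

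**Figure D3:**
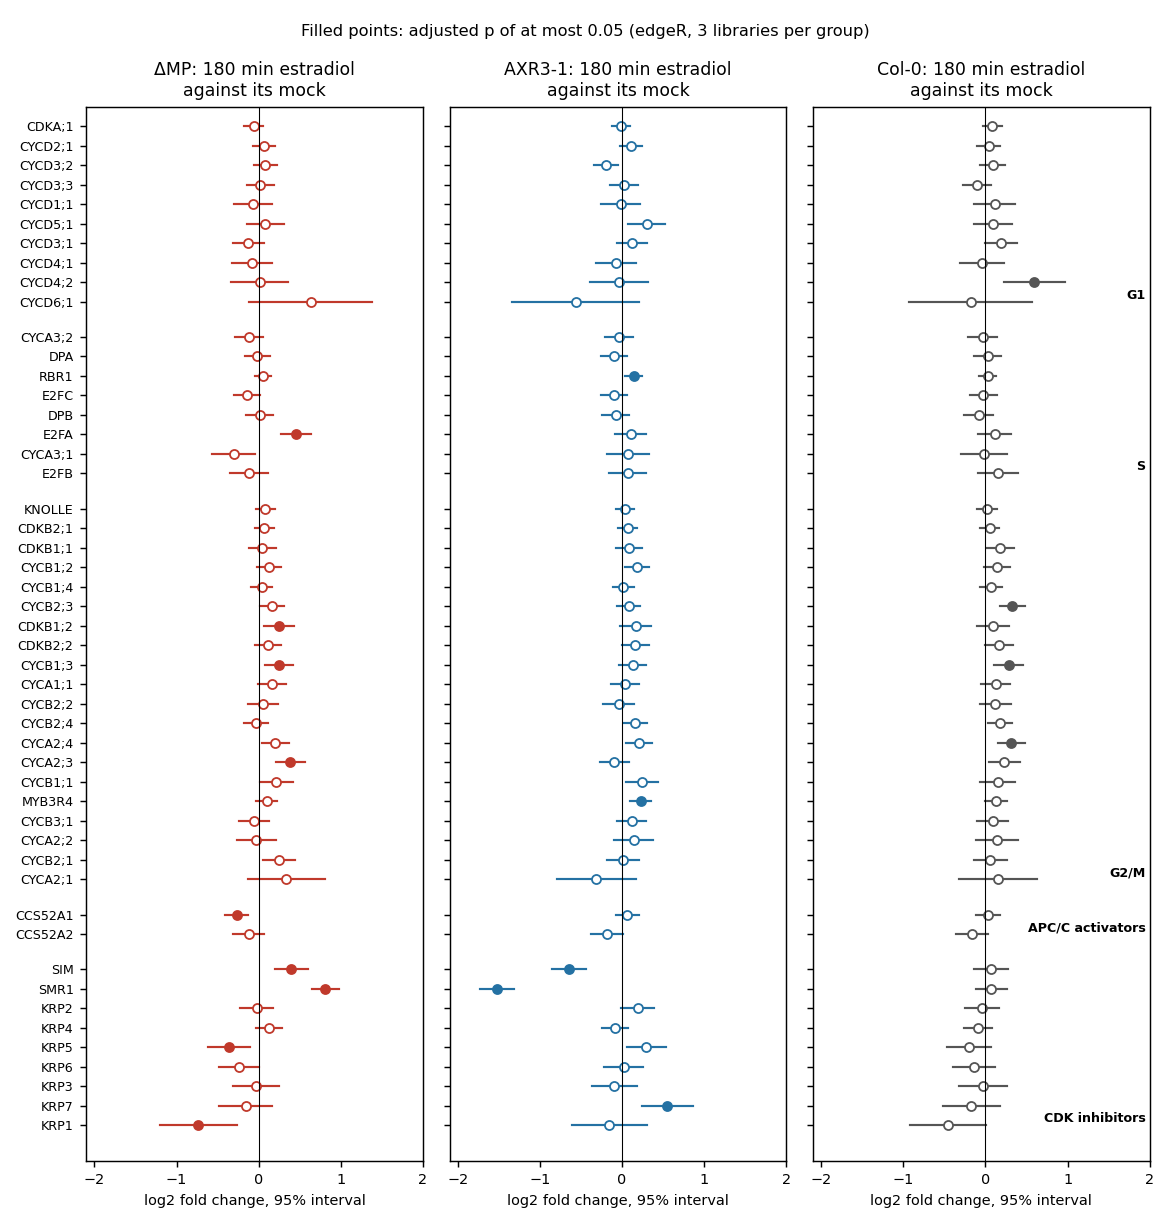
Log2 fold change of each cell cycle gene after 180 min of estradiol relative to the mock of the same line, in ΔMP, AXR3-1 and Col-0 roots. The bar is the 95% interval, filled points passed the test, and genes are grouped by phase. SMR1 lies at 0.81 in ΔMP, −1.53 in AXR3-1 and 0.07 in Col-0, while most other points lie near 0 in all 3 lines.

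Inhibition of the pathway by AXR3-1 was followed by lower levels of the inhibitors SMR1 and SIM. These were also the only genes of the 49 past the test at 90 min. After 180 min, 3 cell cycle genes rose and 2 fell of 49, where 10.6% of all genes rose and 8.88% fell. SMR1 alone passed both the test and a 2-fold change, as did 2.63% of all genes. Of the 44 genes not past the test, 39 had an interval within ±0.5. Without AXR3-1 library C at 180 min, 3 genes in place of 5 passed.

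SMR1 was at 57.7, 58.4 and 54.2 TPM in AXR3-1 mock roots, at 34.2, 27.9 and 35.7 TPM after 90 min of estradiol and at 18.9, 21.0 and 18.1 TPM after 180 min. The 3 groups did not overlap. The log2 fold change was −0.89 at 90 min (SE 0.09, adjusted p = 8.96e-08) and −1.53 at 180 min (SE 0.10, 95% interval −1.73 to −1.32, adjusted p = 3.14e-13). In Col-0, SMR1 averaged 51.6 ± 2.7 TPM in the mock, 58.6 ± 1.0 TPM at 90 min and 53.4 ± 2.8 TPM at 180 min (SD, n = 3 each). The response of AXR3-1 minus that of Col-0 was −1.03 at 90 min (SE 0.13, adjusted p = 1.15e-05) and −1.60 at 180 min (SE 0.14, 95% interval −1.88 to −1.31, adjusted p = 3.67e-10). All of these SMR1 calls were kept in every alternative analysis.

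SIM was at 184, 242 and 239 TPM in AXR3-1 mock roots, at 118, 109 and 127 TPM after 90 min of estradiol and at 143, 132 and 110 TPM after 180 min. Both estradiol groups lay below every mock library, while they overlapped each other. Its log2 fold change was −0.72 at 90 min (SE 0.10, adjusted p = 9.87e-06) and −0.65 at 180 min (SE 0.10, 95% interval −0.86 to −0.44, adjusted p = 8.63e-06). In Col-0, SIM averaged 175 ± 27 TPM in the mock, 159 ± 23 TPM at 90 min and 183 ± 37 TPM at 180 min (SD, n = 3 each), with log2 fold changes of −0.10 at 90 min and 0.07 at 180 min. The response of AXR3-1 minus that of Col-0 was −0.61 at 90 min (SE 0.14, adjusted p = 0.0183) and −0.72 at 180 min (SE 0.14, adjusted p = 5.25e-04). The difference at 180 min was kept in all 21 alternatives, and that at 90 min was lost in 7 of 21 (0.0044 to 0.136). It was lost without AXR3-1 library B at 90 min (0.0565), AXR3-1 mock library C (0.0682), Col-0 library A at 90 min (0.0855) or Col-0 mock library A (0.0748).

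KRP7, a further KRP inhibitor, moved the other way. It was at 4.63, 5.06 and 5.55 TPM in AXR3-1 mock roots, at 5.68, 6.78 and 7.12 TPM after 90 min of estradiol and at 7.01, 6.99 and 9.09 TPM after 180 min. The 180 min libraries lay above all mock libraries, and KRP7 rose by 0.55 (SE 0.15, 95% interval 0.24 to 0.86, adjusted p = 0.00838). It averaged 4.87 ± 0.33 TPM in Col-0 roots after 180 min of estradiol and 5.54 ± 0.77 TPM in Col-0 mock roots (SD, n = 3 each), and the AXR3-1 response exceeded that of Col-0 by 0.72 (SE 0.23, 95% interval 0.26 to 1.18, adjusted p = 0.0344). With SMR1 and SIM, 3 of 49 genes had an AXR3-1 response that differed from the Col-0 response, and 10.9% of all genes did. The KRP7 rise was lost without AXR3-1 library C at 180 min (0.0595) or mock library A (0.0618), in a range from 0.00128 to 0.0618. The KRP7 difference was lost in 9 of 21 alternatives (0.00483 to 0.152), including those without AXR3-1 library C at 180 min (0.101), AXR3-1 mock library A (0.102), Col-0 library A (0.0577), B (0.0702) or C (0.0570) at 180 min, and Col-0 mock library B (0.152). KRP5 was at 21.0, 26.4 and 23.9 TPM in AXR3-1 roots after 180 min of estradiol, against 22.6, 16.1 and 18.1 TPM in the mock (log2 fold change 0.30, adjusted p = 0.0773).

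Outside the inhibitors, AXR3-1 roots had small increases in MYB3R4, an activator of G2/M genes, and in RBR1. MYB3R4 was at 9.63, 9.77 and 10.3 TPM after 180 min of estradiol, against 8.33, 8.51 and 9.15 TPM in AXR3-1 mock roots (log2 fold change 0.22, SE 0.06, adjusted p = 0.0109). RBR1 averaged 19.2 ± 0.77 TPM after 180 min of estradiol and 18.0 ± 0.061 TPM in the mock (SD, n = 3 each), and its lowest induced library was at 18.6 TPM (log2 fold change 0.14, SE 0.05, adjusted p = 0.0424). Neither gene overlapped between the groups. MYB3R4 was lost without AXR3-1 library C at 180 min (0.0661) or mock library B (0.0574). It was also lost by limma on log2(TPM + 0.5) without a TPM filter (0.0539), in a range from 0.00306 to 0.0661. RBR1 was lost in 11 of 15 alternatives (0.0234 to 0.205), among them those without AXR3-1 library A (0.205) or B (0.0719) at 180 min or without mock library A (0.0659), B (0.121) or C (0.112). None of the 10 G1 genes and neither CCS52 gene passed the test by edgeR. At an unadjusted p under 0.05, the D-type cyclin CYCD5;1 was higher (log2 fold change 0.30, adjusted p = 0.0519) and CYCD3;2 was lower (−0.19, adjusted p = 0.0601).

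**Figure D4:**
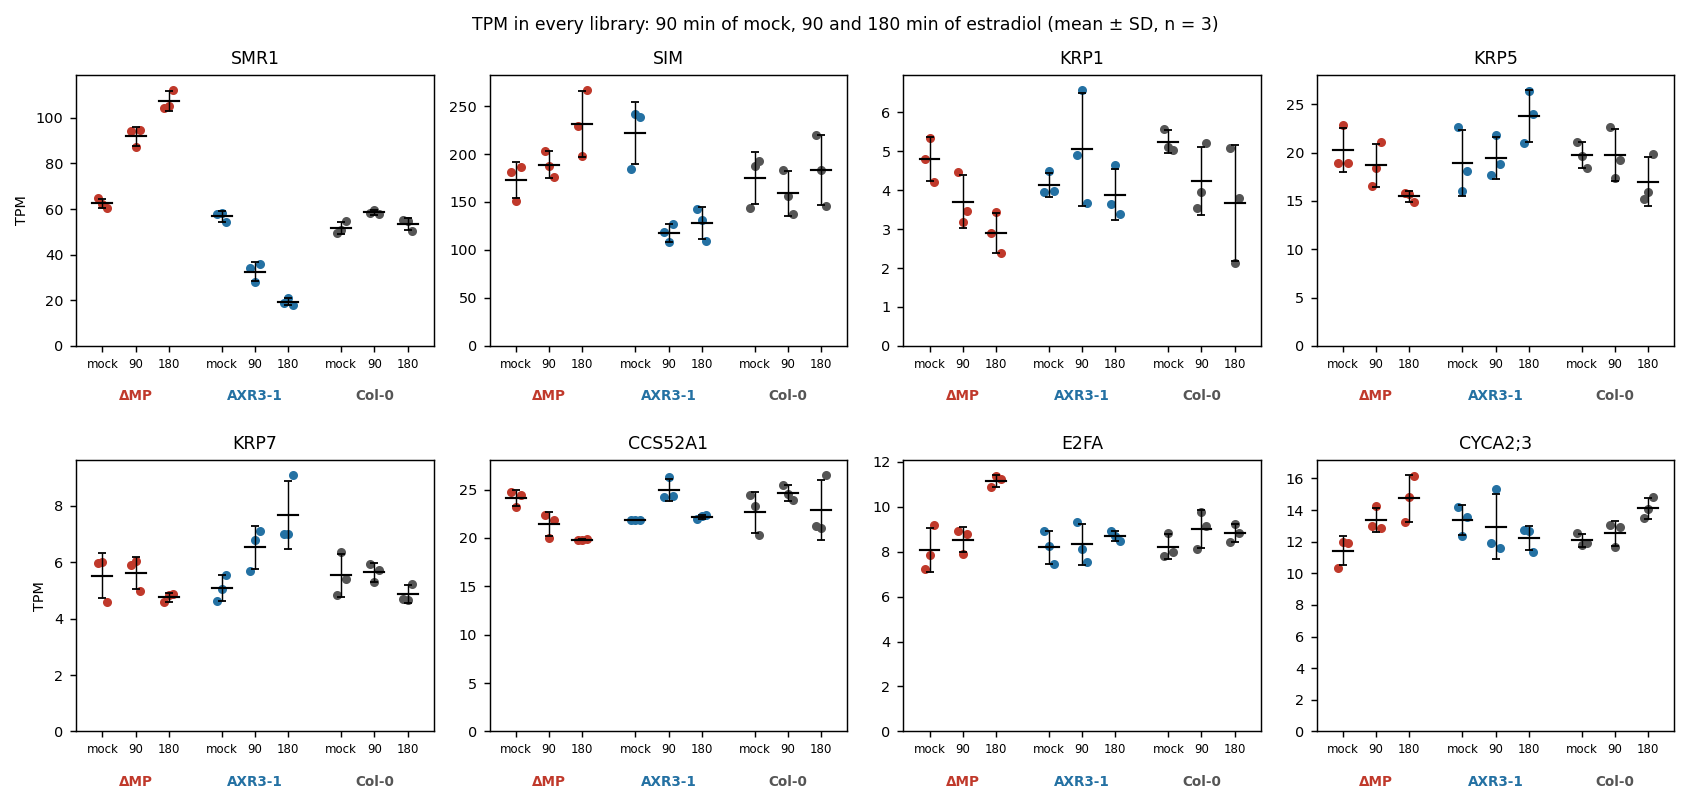
TPM of SMR1, SIM, KRP1, KRP5, KRP7, CCS52A1, E2FA and CYCA2;3 in each of the 27 libraries. Points are libraries, bars are means of 3, and each panel gives mock, 90 min and 180 min of estradiol for ΔMP, AXR3-1 and Col-0. SMR1 reaches 104 to 112 TPM in ΔMP and 18.1 to 21.0 TPM in AXR3-1 at 180 min, with Col-0 near its mock level.

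In Col-0, 4 of the 49 genes rose and none fell after 180 min of estradiol, where 2.28% of all genes rose and 4.03% fell. Of these, 3 belonged to G2/M, namely 2 B-type cyclins and 1 A2-type cyclin. The B-type cyclin CYCB2;3 was at 27.2, 25.5 and 26.3 TPM in Col-0 roots after 180 min of estradiol, against 22.4, 20.4 and 21.6 TPM in Col-0 mock roots, without overlap (log2 fold change 0.33, SE 0.07, adjusted p = 0.00541). This gene shares 30.8% of its 31-base words with another locus, so that its reads may be split between copies. CYCB1;2 shares 26.7%, and no other cell cycle gene shared over 5%. CYCA2;4 was at 15.8, 15.7 and 16.5 TPM after 180 min of estradiol, against 12.7, 13.2 and 13 TPM in the mock (log2 fold change 0.31, SE 0.08, adjusted p = 0.0161). It was lost without Col-0 library C at 180 min (0.0564) or mock library A (0.0703), in a range from 0.0158 to 0.0703.

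CYCB1;3 was at 20.0, 15.4 and 18.9 TPM in Col-0 roots after 180 min of estradiol, against 15.8, 14.2 and 15.9 TPM in Col-0 mock roots, and these groups overlapped. It rose by 0.28 (adjusted p = 0.0445), and the call was lost in 10 of 15 alternatives (0.00646 to 0.286), among them those without Col-0 library A (0.286) or C (0.112) at 180 min or mock library A (0.0808) or B (0.188). CYCD4;2, a low D-type cyclin, rose by 0.595 (SE 0.18, adjusted p = 0.0458). It rested on 124 estimated counts over the libraries at 180 min and 96 over the mock libraries, and the call was lost without any single library of the 6 (0.0557 to 0.137) and in 11 of 15 alternatives (0.0131 to 0.170). Without Col-0 library C at 180 min or mock library A, 1 gene in place of 4 passed the test, and without library A at 180 min or mock library B, 2 genes did. No gene of the S phase class and no CDK inhibitor passed the test in Col-0 by edgeR, nor had any of them an unadjusted p under 0.05.

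At 90 min few cell cycle genes had changed in any line. SMR1 rose in ΔMP and no gene fell by edgeR, where 1.28% of all genes rose and 2.75% fell. SMR1 was at 94.0, 87.1 and 94.6 TPM in ΔMP roots after 90 min of estradiol, against 64.7, 62.1 and 60.6 TPM in ΔMP mock roots (log2 fold change 0.56, SE 0.08, adjusted p = 1.57e-05). The difference from the Col-0 response, 0.42 (SE 0.12), did not pass the test (adjusted p = 0.0743), but passed with an offset for transcript length (0.0428) and in a fit of only the groups compared (0.0350). No cell cycle gene had such a difference at 90 min by edgeR, with 3 at an unadjusted p under 0.05, while 1.45% of all genes passed. In AXR3-1, SIM and SMR1 fell and none rose by edgeR, where 2.62% of all genes rose and 3.23% fell. For the same 2 genes the AXR3-1 response differed from that of Col-0, as it did for 1.38% of all genes.

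In Col-0 after 90 min of estradiol KRP4 was the 1 gene that fell and none rose by edgeR, where 0.548% of all genes rose and 2.39% fell. KRP4 was at 15.9, 16.1 and 17.1 TPM in Col-0 roots after 90 min of estradiol, against 20.71, 20.07 and 20.25 TPM in Col-0 mock roots, without overlap (log2 fold change −0.32, SE 0.08, adjusted p = 0.0243). The call was lost without Col-0 library A (0.0686), B (0.0876) or C (0.0645) at 90 min or mock library A (0.0793) or B (0.0983). It was also lost by limma on log2(TPM + 0.5) without a TPM filter (0.0626), in a range from 0.0187 to 0.0983. In each of these cases no gene was past the test.

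Between 90 and 180 min of estradiol, 4 cell cycle genes of 49 rose in ΔMP, where 21.3% of all genes passed the test in either direction. E2FA was higher by 0.41 (adjusted p = 5.92e-04), with 10.9, 11.3 and 11.2 TPM at 180 min, against 8.91, 7.89 and 8.77 TPM at 90 min. SIM was higher by 0.28 (adjusted p = 0.0337), the B-type kinase CDKB1;2 by 0.26 (adjusted p = 0.0335) and SMR1 by 0.25 (adjusted p = 0.0163). The E2FA call was kept in all 15 alternatives, and the others were not. SMR1 was lost without ΔMP library C at 180 min (0.181) or B at 90 min (0.104), in a range from 0.00357 to 0.181. SIM was lost without library A (0.0609) or C (0.196) at 180 min or B (0.0602) or C (0.137) at 90 min, and also with the length offset (0.0817) and in the 3 limma fits (0.215 to 0.263), in a range from 0.00369 to 0.263. The kinase call was lost without library B (0.172) or C (0.0830) at 180 min or B (0.123) or C (0.0841) at 90 min and in 6 other settings, DESeq2 among them (0.0651), in a range from 0.0244 to 0.172. 1 gene passed without library C at 180 min or B at 90 min, and 2 passed without library C at 90 min.

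In AXR3-1, 2 genes rose and 2 fell between 90 and 180 min, where 17.2% of all genes passed. SMR1 fell by a further 0.64 on the log2 scale (adjusted p = 6.96e-05), in all 15 alternatives. CYCD3;2, a D-type cyclin, averaged 24.9 ± 1.5 TPM at 180 min and 29.96 ± 1.2 TPM at 90 min (SD, n = 3 each) and fell by 0.26 (adjusted p = 0.00958). KRP5 rose by 0.37 (adjusted p = 0.0280) and the mitotic cyclin CYCB2;4 by 0.20 (adjusted p = 0.0407). The call on the D-type cyclin was lost without AXR3-1 library A at 180 min (0.0742) or at 90 min (0.0523), in a range from 0.00564 to 0.0742. KRP5 was lost without library B at 180 min (0.152) or A (0.149) or C (0.0653) at 90 min and in 4 other settings, the length offset and the 3 limma fits, in a range from 0.0242 to 0.170. The call on the B-type cyclin was lost without library B (0.129) or C (0.102) at 180 min or B (0.113) or C (0.127) at 90 min and in 6 other settings, in a range from 0.0371 to 0.129. Without library B at 180 min, or A or C at 90 min, 2 genes in place of 4 passed.

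In Col-0, 1 gene changed between the times, where 5.64% of all genes passed. CYCD3;3 averaged 21.5 ± 1.7 TPM at 180 min and 26.4 ± 0.72 TPM at 90 min (SD, n = 3 each) and fell by 0.28 (adjusted p = 0.0377). It was lost without Col-0 library A (0.119) or B (0.152) at 180 min or B (0.0903) or C (0.160) at 90 min, and also by DESeq2 (0.05002) and with only the groups compared in the fit (0.0752), in a range from 0.0144 to 0.160. Without library B or C at 90 min no gene passed.

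Before induction few of these genes passed the test between lines. No cell cycle gene passed the test between the ΔMP and Col-0 mocks by edgeR, with 4 at an unadjusted p under 0.05, where 3.82% of all genes passed. SMR1 was among the 4, higher in the ΔMP mock by 0.25 on the log2 scale (adjusted p = 0.118). Between the AXR3-1 and Col-0 mocks 1 gene passed, where 2.05% of all genes did. That gene was CYCB2;3, at 27.1, 27.9 and 28.7 TPM in AXR3-1 mock roots, against 22.4, 20.4 and 21.6 TPM in Col-0 mock roots, without overlap (log2 fold change 0.41, SE 0.07, adjusted p = 0.00125). In the AXR3-1 mock 19 of the 20 G2/M genes had positive log2 fold changes over the Col-0 mock (median 0.10, against 0.0029 over all genes tested). Their summed level was 354.9 to 385.0 TPM in AXR3-1 mock roots, against 339.3 to 345.8 TPM in Col-0 mock roots, without overlap. In the ΔMP mock 7 of the 20 were positive (median −0.03). SIM was higher by 0.23 in the AXR3-1 mock than in the Col-0 mock, which did not pass the test (edgeR, adjusted p = 0.273).

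Taken by phase, the G2/M genes had small positive fold changes in every line, Col-0 included. The log2 fold change at 180 min was positive for 17 of 20 genes in ΔMP (median 0.12), 17 of 20 in AXR3-1 (median 0.10) and 20 of 20 in Col-0 (median 0.14), where the median over all genes tested was 0.01 in ΔMP, −0.0013 in AXR3-1 and 0.0028 in Col-0. At 90 min it was positive for 17, 15 and 19 of the 20 genes in ΔMP, AXR3-1 and Col-0. Once the Col-0 response was subtracted, 8 of 20 in ΔMP (median −0.03) and 9 of 20 in AXR3-1 (median −0.03) were positive at 180 min. Summed over the 20 genes, the G2/M level averaged 363.8 TPM in ΔMP after 180 min of estradiol and 338.9 TPM in the ΔMP mock. The ratio was 1.07 ± 0.052 (SD propagated from both groups), with overlapping libraries. The ratio was 1.05 ± 0.045 in AXR3-1, again with overlap, and 1.09 ± 0.038 in Col-0, where the 3 induced libraries lay above the mock. The 9 B-type cyclins summed to 148.7 TPM in ΔMP after 180 min and 138.5 TPM in the mock, and in Col-0 to 152.8 TPM after 180 min and 137.8 TPM in the mock.

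The G1 and S phase genes were less uniform. The median log2 fold change of the 10 G1 genes at 180 min was 0.01 in ΔMP and −0.02 in AXR3-1, with 6 and 4 genes positive, and that of the 8 S phase genes was −0.07 in ΔMP and 0.01 in AXR3-1, with 3 and 4 positive. In Col-0 at 180 min 7 of the 10 G1 genes (median 0.09) and 4 of the 8 S phase genes (median 0.0048) were positive. At 90 min the G1 genes were positive for 7 of 10 in ΔMP (median 0.03), 9 of 10 in AXR3-1 (median 0.12) and 8 of 10 in Col-0 (median 0.14), and none passed the test by edgeR, with 0, 3 and 3 higher at an unadjusted p under 0.05. The summed G1 level at 90 min was 203.7 to 223.6 TPM in AXR3-1, against 197.4 to 199.5 TPM in its mock, and 203.3 to 213.6 TPM in Col-0, against 186.8 to 197.8 TPM in its mock, without overlap in either line. The summed G1 level was 0.988 of the mock in ΔMP and 1.00 of the mock in AXR3-1 at 180 min. The summed S phase level was 0.981 ± 0.019 of the mock in ΔMP, with all 3 induced libraries below the mock, and 0.989 of the mock in AXR3-1. That S phase ratio depends on the scale, since it was 1.01 in counts scaled to library size with TMM factors, which do not divide by length.

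Of the 5 classes, only the 9 CDK inhibitors had sums apart from the mock in opposite directions in the 2 inducible lines at 180 min. The 9 genes summed to 424.8 TPM in ΔMP after 180 min of estradiol and 331.0 TPM in the mock (ratio 1.28 ± 0.12, SD), and to 251.8 TPM in AXR3-1 after 180 min of estradiol and 372.8 TPM in the mock (ratio 0.676 ± 0.070). In neither line did the groups overlap, and in Col-0 the ratio was 1.01. In counts scaled to library size with TMM factors the ratios were 1.197 in ΔMP and 0.803 in AXR3-1. The sums were set by SIM and SMR1, whose joint level was 1.44 ± 0.20 of the mock in ΔMP and 0.530 ± 0.088 in AXR3-1. The sum of the 7 KRP genes was 86.1 TPM in ΔMP after 180 min of estradiol and 95.5 TPM in the mock (ratio 0.902 ± 0.054), and 104.3 TPM in AXR3-1 after 180 min of estradiol and 94.4 TPM in the mock (ratio 1.11 ± 0.070). Neither overlapped, but in Col-0 the KRP ratio at 180 min was 0.915, with overlap, and 0 of its 7 log2 fold changes were positive (median −0.14). Gene by gene, 1 of 7 was positive in ΔMP (median −0.16) and 4 of 7 in AXR3-1 (median 0.02), and after subtraction of the Col-0 response 4 of 7 in ΔMP (median 0.0023) and 5 of 7 in AXR3-1 (median 0.23). The 2 APC/C activators summed to 26.1 TPM in ΔMP after 180 min of estradiol and 31.02 TPM in the mock (ratio 0.840 ± 0.039), without overlap.

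**Figure D5:**
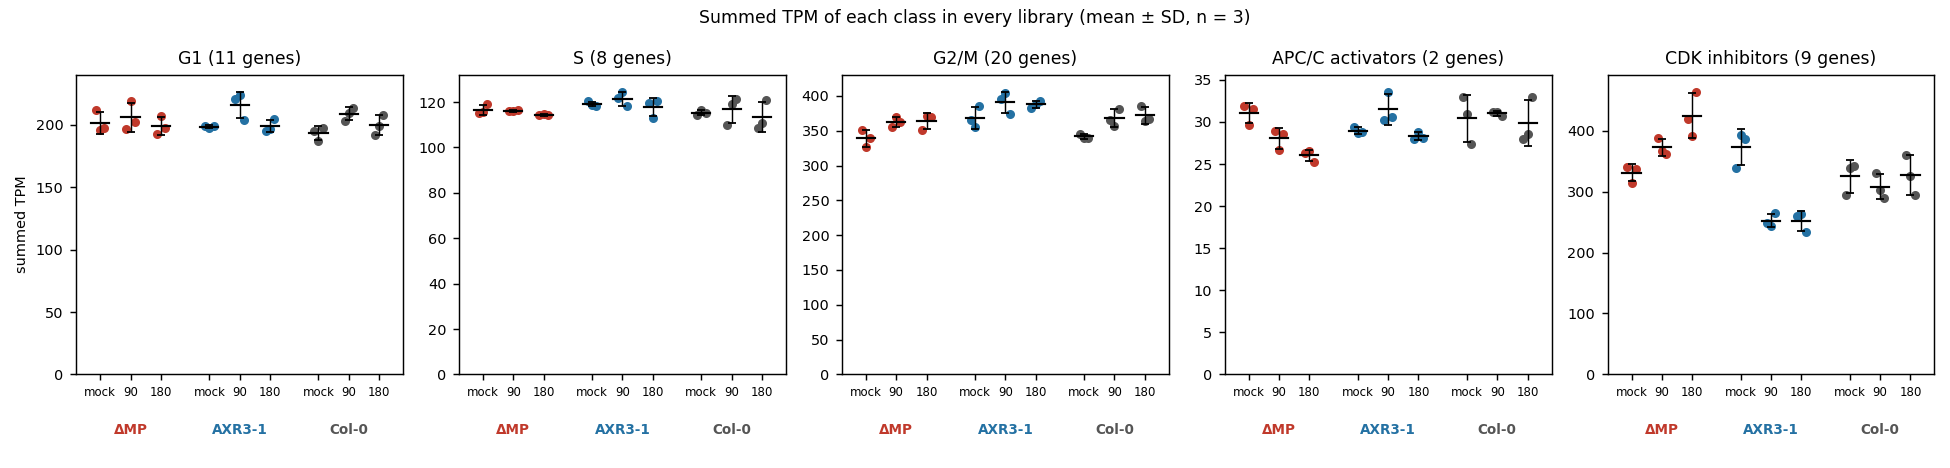
Summed TPM of the 11 G1, 8 S, 20 G2/M, 2 APC/C activator and 9 CDK inhibitor genes in each library (points) with group means (bars), for mock, 90 min and 180 min of estradiol in ΔMP, AXR3-1 and Col-0. The inhibitor sum averages 424.8 TPM in ΔMP and 251.8 TPM in AXR3-1 at 180 min.

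Other genes of the pathway were read from lists of genes by role. Of 21 DNA replication genes, RNR2A, a subunit of ribonucleotide reductase, rose by 0.37 in ΔMP at 180 min and CDT1A, a licensing factor, fell by 0.34, while in AXR3-1 the polymerase alpha subunit POLA2 (0.28), the helicase subunit MCM7 (0.18) and RNR1 (0.14) rose and none fell, where 10.6% of all genes rose. RNR2A and CDT1A were kept in all 15 alternatives. POLA2 was lost in 5 of them (adjusted p up to 0.1002, without AXR3-1 library A at 180 min), MCM7 in 6 (up to 0.0835) and RNR1 in 12 (up to 0.220). In Col-0 none of the 21 passed by edgeR, with 4 higher at an unadjusted p under 0.05. Of 19 genes of mitosis and cytokinesis, 3 rose in ΔMP at 180 min, with PAKRP1L, a phragmoplast kinesin, at 0.21, BUB3.1, a protein of the spindle checkpoint, at 0.21 and the kinesin HIK at 0.18, and none fell, where 12.7% of all genes rose. BUB3.1 was lost in 11 of the 15 alternatives (adjusted p up to 0.168), HIK in 5 (up to 0.128, without ΔMP mock library B) and PAKRP1L in 2 (up to 0.0818, without the same mock library). In Col-0, CDC20.2 (0.25), PAKRP1L (0.24) and HIK (0.20) rose, where 2.28% of all genes did, but they were lost in 8, 5 and 7 of the 15 alternatives, with adjusted p up to 0.153 for CDC20.2, 0.101 for PAKRP1L and 0.176 for HIK. In AXR3-1 none passed by edgeR, with 4 at an unadjusted p under 0.05. The fold changes of this list were positive for 17 of 19 genes in ΔMP, 14 of 19 in AXR3-1 and 19 of 19 in Col-0. The MSA core was present in 63.2% of their promoters. Of 16 other regulators, among them the E2F-like repressor genes DEL1 to DEL3, WEE1 and the CDK-activating kinases, none passed in any line at 180 min by edgeR, and none had an unadjusted p under 0.05.

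Of 12 further SMR genes, which lie outside the 50, 11 were tested. In ΔMP at 180 min AT2G28870 rose by 0.99 (18.6, 22.6 and 18.6 TPM after 180 min of estradiol, against 10.2, 10.9 and 9.46 TPM in the mock), without overlap. AT1G10690 (SMR8, −0.58) and AT5G02420 (−0.45) fell, where 12.7% of all genes rose and 12.1% fell. The SMR8 call was lost in 4 of the 15 alternatives, with an adjusted p of up to 0.174, without ΔMP library C at 180 min. None of the 11 passed in AXR3-1 or Col-0 at 180 min by edgeR, with 1 lower in AXR3-1 at an unadjusted p under 0.05. Reads may be shared among the histone H3.1 and H4 genes, which was not measured. Of 13 such genes, 1 rose in ΔMP, 2 in AXR3-1 and 1 in Col-0. None fell at 180 min. Over all genes 12.7% rose in ΔMP, 10.6% in AXR3-1 and 2.28% in Col-0.

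Some markers of cell types in the root tip also changed at 180 min. Of 5 markers of root hairs and of differentiated root cells, RSL4, EXPA7 and EXPA18 rose in ΔMP at 180 min (0.58, 0.68 and 0.79) and fell past 2-fold in AXR3-1 (−2.09, −1.76 and −1.58), while COBL9 and CASP1 did not pass the test in either line. In Col-0 none of the 5 passed by edgeR, with 1 higher at an unadjusted p under 0.05. The summed level of the 5 lay between 600.0 and 637.2 TPM in ΔMP after 180 min of estradiol, against 587.6 to 622.5 TPM in the mock, and between 395.0 and 516.1 TPM in AXR3-1 after 180 min of estradiol, against 489.5 to 587.7 TPM in the mock. At 90 min in ΔMP COBL9 fell by 0.40 and the other 4 did not pass the test, and the sum lay at 521.8 to 566.2 TPM, below the mock libraries. At 90 min in AXR3-1 RSL4 (−1.33), EXPA7 (−0.81) and EXPA18 (−0.53) fell, the last in 14 of the 15 alternatives, with a sum of 487.4 to 598.0 TPM that overlapped the mock. Of 10 meristem and stem cell niche markers, 9 were tested, and WOX5 rose by 1.33 and SCR fell by 0.17 in ΔMP at 180 min. In AXR3-1 SCR rose by 0.24 and RGF3 fell by 0.51. For either line this was 1 marker of 9 in each direction, which is near the shares of all genes. The SCR call in ΔMP was lost in 3 of the 15 alternatives (adjusted p up to 0.146, without ΔMP library C at 180 min), and the RGF3 call in AXR3-1 in 3 (up to 0.127, without AXR3-1 mock library A). The summed level of these markers lay between 143.9 and 161.5 TPM in ΔMP after 180 min of estradiol, against 140.9 to 164.4 TPM in the mock, and between 137.8 and 147.2 TPM in AXR3-1 after 180 min of estradiol, against 142.5 to 155.7 TPM in the mock. Of 4 root cap markers, 2 fell in ΔMP (BRN1, −1.21, and SMB, −0.34). In AXR3-1 3 fell (BRN2, −0.85, FEZ, −0.64, and SMB, −0.53) and 1 rose (BRN1, 0.63). Of 5 lateral root initiation markers tested, 2 rose in ΔMP (LBD29 0.90) and 1 rose in AXR3-1 (GATA23, 1.19). The part of these cell types in the SIM and SMR1 results was not tested.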

How the data were processed

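Root-tip RNA was sequenced as 27 libraries, 3 in each of 9 groups of line, treatment and time, and the groups were taken from the sample labels. The authors quantified read pairs with Salmon 1.3.0 against the TAIR10 coding sequences (32875 transcripts, no untranslated regions) and deposited, per transcript, an estimated count and an effective length. They deposited the abundance of each transcript as TPM, made by Salmon from the same counts and lengths. Trimming is named as Trimmomatic in the submitters' processing notes and differently in the study's methods. The authors' own tests used sleuth and are not used here.

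Estimated counts and TPM were summed over the transcripts of each locus. A ratio of summed TPM is the ratio of the group means. Its SD was propagated from the library SDs of the groups, and is not a spread of ratios per library. The main test was edgeR 4.0.16 (R 4.3.3), with counts rounded to whole numbers, TMM scaling, its default filter (19530 of 27313 loci kept), 1 mean per group, and the quasi-likelihood test in a fit of all 27 libraries with 18 residual degrees of freedom and a prior count of 0.125. P-values were adjusted by Benjamini-Hochberg over all 19530 genes, and a gene passed at an adjusted p of at most 0.05. Rounding and summing precede all tests, so small counts carry the error of the estimate as well. Interactions were contrasts of the same fit. Any of the 50 genes could be named; full statistics went to those past the test with the largest change in each family at 180 min or with an interaction past the test, and outside the 50 to the induced genes and to the largest rise and fall in each list. The 50 genes and all lists were chosen with earlier results of these data known.

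Alternatives were DESeq2 1.42.0, its size factors in edgeR, no count filter, an offset for effective length, limma 3.58.1 on log2(TPM + 0.5) or log2(TPM + 1), limma without the TPM filter (at least 1 TPM in 3 libraries), only the groups compared, the letter as a block, and leaving out each library. The scripts were tested on simulated data. Promoters were the 250 bases before each RefSeq gene start on TAIR10.1, read with Python 3.11.15. RefSeq coding lengths were found for all 50 genes. Libraries of a group differed by more than sampling noise, with a chi-square per degree of freedom between 2.22 and 9.24 over 27 pairs.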

Additional observations from a re-analysis of the deposited data

Results flagged for a closer look

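The interaction test, which subtracts the Col-0 response, found 7 responses of cell cycle genes that differed between an inducible line and Col-0. SMR1 differed by 0.74 and CCS52A1 by −0.30 on the log2 scale in ΔMP at 180 min, where 10.1% of all genes differed. In AXR3-1 at 180 min SMR1 differed by −1.60, SIM by −0.72 and KRP7 by 0.72, where 10.9% of all genes differed. At 180 min the cell cycle genes differed no more often than all genes did in either line. At 90 min in AXR3-1 SMR1 differed by −1.03 and SIM by −0.61, where 1.38% of all genes differed. No cell cycle gene differed in ΔMP at 90 min, where 1.45% of all genes did. Of the 50 genes, SMR1 alone had such a difference in both inducible lines, above 0 in ΔMP and below 0 in AXR3-1, and the responses were not tested against each other.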

How the results depend on the processing

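Of 39 calls on cell cycle genes, 17 were kept under every alternative run, 22 were lost under at least 1 and 0 reversed. Of 49 calls on genes of the other lists, 29 were kept throughout and 0 reversed. With an offset for effective length, 10 cell cycle genes in place of 5 passed in AXR3-1 at 180 min, 2 in place of 4 in Col-0 at 180 min, 1 in place of 2 in the difference of ΔMP from Col-0 at 180 min, 1 in place of 0 in that difference at 90 min (SMR1), and 1 in place of 0 between the ΔMP and Col-0 mocks (SMR1, 0.26). By limma on log2(TPM + 0.5) and on log2(TPM + 1), 1 in place of 2 passed in the difference of AXR3-1 from Col-0 at 90 min and 1 in place of 0 between the ΔMP and Col-0 mocks (SMR1, 0.27 in both). Without the TPM filter limma gave these 2 counts again, and 3 in place of 5 in AXR3-1 at 180 min, 0 in place of 1 in Col-0 at 90 min and 1 in place of 2 in the difference of ΔMP from Col-0 at 180 min. In a fit of only the groups compared 2 passed in Col-0 at 180 min, 1 in the difference of ΔMP from Col-0 at 180 min and 1 in that at 90 min. The cause of these shifts was not tested.

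Leaving out 1 library at a time, between 6 and 10 genes passed in ΔMP at 180 min, 3 to 7 in AXR3-1 and 1 to 3 in Col-0. At 90 min 1 passed in ΔMP, 2 to 3 in AXR3-1 and 0 to 1 in Col-0. The differences from Col-0 gave 1 to 3 for ΔMP and 2 to 4 for AXR3-1 at 180 min, and 0 for ΔMP and 1 to 2 for AXR3-1 at 90 min. The mocks gave 0 for ΔMP and 1 for AXR3-1, and 180 against 90 min gave 1 to 4, 2 to 3 and 0 to 1 in ΔMP, AXR3-1 and Col-0.

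Over all genes, the split of higher against lower calls moved with the scaling in AXR3-1. At 90 min it was 803 higher and 556 lower with the length offset, against 512 and 630 in the fit reported. At 180 min it was 1577 higher and 2009 lower by limma on log2(TPM + 0.5), against 2069 and 1734, and for 180 against 90 min by the 3 limma fits 38.2 to 40.0% of calls were higher. In the difference of AXR3-1 from Col-0 at 90 min 68.1% were higher with the offset.

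Libraries with the same letter did not deviate together (correlation of deviations −0.207 to 0.246, mean 0.0050, over 0.1 in 2 of 27 pairs, and 10 of 27 libraries closest to their own letter). With the letter as a replicate block 3 calls were lost: CCS52A1 in the difference of ΔMP from Col-0 (adjusted p = 0.0508), CYCB1;3 (0.0514) and CYCD4;2 (0.0527) in Col-0 at 180 min, so that 1 and 2 genes passed there.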
